A study of Salmo salar with 30 samples.

Results

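Neuritin, cerebellin-1-like and schwannomin-interacting protein 1-like are 3 neural transcripts, each read by 1 probe of a salmonid microarray (probes C147R039, C138R082 and C064R164). They were chosen from the lists of transcripts that differed between rearing environments on these same arrays, so that their difference between environments is given here as a description with no test. They are 3 of 21136 probes retained, of which 3075 carried a gene name. The probes were named in the study by protein similarity, and no probe sequence or genome position was used here.

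The arrays measured the head transcriptome of Atlantic salmon juveniles at emergence. Juveniles of 3 full-sib families had been reared from the eyed stage either buried in gravel (the enriched environment) or without gravel (the unenriched environment). Family X11 had a wild dam and a wild sire, and families X22 and X35 had a wild dam and a farmed sire of the Saint John River strain. X35 was crossed a week after X11 and X22. The 6 groups were enriched X11, enriched X22, enriched X35, unenriched X11, unenriched X22 and unenriched X35, with 5 juveniles in each. Each group came from 1 tank, so that a difference between environments within a family cannot be told apart from a difference between its 2 tanks, and the spread between juveniles is the spread within a tank. Heads were cut behind the operculum and held the brain, the eyes and the heart. In whole heads, fewer cells of a type and less RNA per cell cannot be told apart.

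Neuritin is a small membrane-anchored protein that neurons make in response to activity, and it is known for promoting the outgrowth of neurites and the maturation of synapses. Cerebellin-1 is a secreted protein of the C1q family which, in the mouse cerebellum, bridges presynaptic neurexin and a postsynaptic glutamate receptor of the delta type and so holds synapses together. Schwannomin-interacting protein 1 binds schwannomin, the product of the neurofibromatosis type 2 gene, and in mammals is found at the axon initial segment and the nodes of Ranvier, where action potentials start and are renewed.

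Transcript abundance is given throughout as the log2 ratio of a juvenile's Cy5 signal to the Cy3 signal of a reference pooled from all juveniles. A value of 0 means that a juvenile equalled the pool, and 1 unit is a doubling. These ratios compare juveniles for a probe and do not rank the probes against each other. Between 28.2% and 42.9% of spots on an array were above the Cy5 background limit, the mean plus 2 SD of the local background. Between 48.0% and 53.7% were above the corresponding limit in Cy3. The correlation of an array's median Cy5 brightness with the 3 probes was between -0.07 and 0.01 over the 30 arrays. Within groups it was -0.04 for neuritin, -0.31 for cerebellin-1-like and -0.23 for schwannomin-interacting protein 1-like. Arrays lay on 8 slides that did not hold the groups evenly. Slides 5 and 8 held only enriched juveniles, and slide 6 held only unenriched ones.

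Mean neuritin transcript abundance was higher in the enriched environment in all 3 families. The margin was widest in X11 as measured. It was wider in X35 with slide as a fixed block (1.17, against 0.53 in X11). Those values rest on slide 7 (3 enriched, 1 unenriched) for X35 and slide 4 (1 enriched, 3 unenriched) for X11. It was also wider in X35 with 8 unenriched juveniles of high atrial myosin left aside (0.43, against 0.30). That choice took out 4 of the 5 unenriched X11 juveniles, so neither choice settles the order of the families. In X11 the log2 ratios were 0.20, 1.16, -0.05, 0.39 and 0.41 in enriched juveniles, against -0.57, -0.66, -0.24, -0.88 and 0.12 in unenriched juveniles. Both groups overlapped, since 1 unenriched juvenile stood above the lowest enriched one and 4 of 5 enriched juveniles were above every unenriched one. In X22 the ratios were 0.32, 0.37, 0.44, 0.52 and 0.07 in enriched juveniles, against 0.06, 0.09, -0.74, 0.67 and 0.09 in unenriched juveniles. Here the highest value of the family was that of an unenriched juvenile, and unenriched replicate 3 stood low on its own. In X35 the ratios were 0.23, 1.08, -0.05, -0.04 and -0.21 in enriched juveniles, against 0.19, -0.13, -0.33, -1.11 and -0.75 in unenriched juveniles. Enriched replicate 2 was far above its tank mates, and the rest of the 2 groups overlapped. In both X35 tanks replicates 1 and 2 were above replicates 3 to 5, so that the X35 means and spread rest on a split within each tank.

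Mean neuritin ratios were 0.32 ± 0.39 in enriched juveniles and -0.28 ± 0.49 in unenriched juveniles (SD, n = 15 each). The difference was 0.60 (SE 0.16), a 1.49-fold difference between the mean unlogged ratios, and all 15 enriched juveniles exceeded the median of the unenriched ones. Taken family by family it was 0.87 (SE 0.24, 1.84-fold) in X11 and 0.63 (SE 0.30, 1.56-fold) in X35, and smallest in X22 at 0.31 (SE 0.22, 1.19-fold). Its Cy5 signal was above the background limit on all 30 arrays, with medians of 4012 in enriched and 3244 in unenriched juveniles. It was the only member of which every spot was bright in both environments.

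Mean cerebellin-1-like abundance was higher in the enriched environment in all 3 families as measured, but not in X35 with slide as a fixed block or with atrial myosin taken into account. In X11 the log2 ratios were 0.28, 0.45, 0.35, 0.18 and 0.43 in enriched juveniles, against -1.22, -0.82, -0.56, -1.19 and -1.01 in unenriched juveniles. These groups did not overlap, and the enriched juveniles were close to each other (SD 0.11, against 0.28 in unenriched juveniles). In X22 the ratios were 0.72, -0.41, -0.01, -0.95 and -0.14 in enriched juveniles, against -1.14, -0.22, -1.47, -0.15 and -0.18 in unenriched juveniles. The X22 groups overlapped widely, and unenriched replicates 1 and 3 were the lowest juveniles of the family. In X35 the ratios were 0.08, -0.03, -0.03, 0.12 and -0.34 in enriched juveniles, against 0.07, -0.13, -0.16, -1.43 and 0.38 in unenriched juveniles. Unenriched replicate 4 alone pulled its group down, and without it the X35 difference was -0.08.

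Mean cerebellin-1-like ratios were 0.05 ± 0.41 in enriched juveniles and -0.62 ± 0.60 in unenriched juveniles (SD, n = 15 each). The difference was 0.66 (SE 0.18, 1.51-fold), and 14 of 15 enriched juveniles exceeded the unenriched median. X11 differed by 1.30 (SE 0.15, 2.43-fold), X22 by 0.47 (SE 0.33, 1.39-fold) and X35 by 0.21 (SE 0.29, 1.08-fold). This was also the dimmest member. Its Cy5 signal was above the background limit in 9 of 15 enriched and 2 of 15 unenriched juveniles. In X11 it was above the limit in 5 of 5 enriched and 0 of 5 unenriched juveniles, so that the size of the X11 difference rests on unenriched spots not well above background. With dim Cy5 spots removed, the probe was missing on too many arrays to be retained.

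Schwannomin-interacting protein 1-like followed the same direction with the tightest values. In X11 the log2 ratios were -0.14, 0.44, 0.19, 0.46 and 0.63 in enriched juveniles, against -0.55, -0.62, -1.20, -0.27 and -0.17 in unenriched juveniles. The X11 groups did not overlap, although the lowest enriched juvenile stood close above the highest unenriched one. In X22 the ratios were 0.57, -0.12, 0.40, 0.18 and 0.60 in enriched juveniles, against 0.02, 0.33, -0.80, 0.06 and -0.02 in unenriched juveniles. Unenriched replicate 3 was again the lowest of its family, as for neuritin and cerebellin-1-like. In X35 the ratios were 0.20, -0.10, -0.15, 0.16 and -0.26 in enriched juveniles, against -0.20, -0.13, -0.42, -0.68 and -0.60 in unenriched juveniles. In X35 the lower enriched and the upper unenriched juveniles overlapped.

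Mean ratios of this probe were 0.20 ± 0.30 in enriched juveniles and -0.35 ± 0.40 in unenriched juveniles (SD, n = 15 each). The difference was 0.55 (SE 0.13, 1.45-fold), with all 15 enriched juveniles above the unenriched median. X11 differed by 0.88 (SE 0.21, 1.81-fold), X22 by 0.41 (SE 0.22, 1.31-fold) and X35 by 0.37 (SE 0.16, 1.29-fold). Its Cy5 signal was above the limit in 14 of 15 enriched and 13 of 15 unenriched juveniles.

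**Figure D1:**
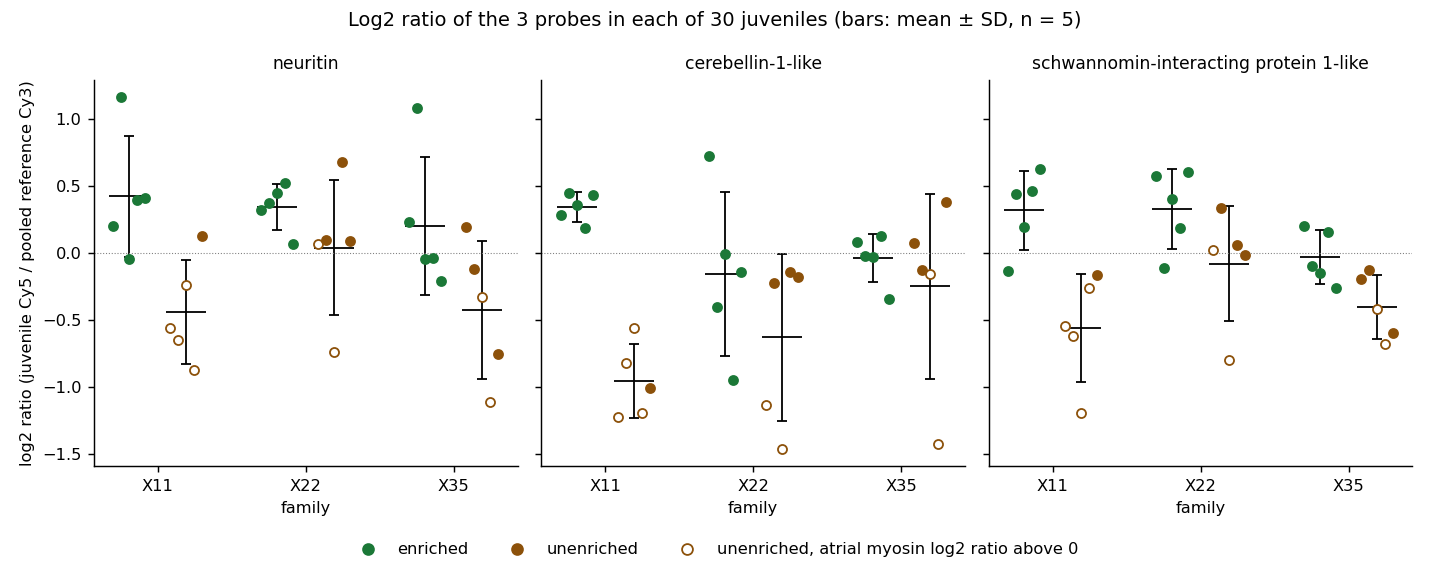
Log2 ratio (vertical axis, juvenile Cy5 over pooled Cy3) of the 3 probes in each of 30 juveniles, by family and environment, with horizontal bars for the group mean and vertical bars for ± SD (n = 5). Open circles mark the 8 unenriched juveniles whose atrial myosin ratio was above 0. Cerebellin-1-like enriched X11 juveniles (0.18 to 0.45) lie apart from all unenriched X11 juveniles (-1.22 to -0.56).

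Because these contrasts chose the probes, their standing among all probes is printed only to place them. Over all families 0.615% of probes passed a false discovery rate (FDR) of 5% in limma's moderated test, and 1 of the 3 members did, schwannomin-interacting protein 1-like. Within X11 12.9% of probes passed, among them all 3 members. Within X22 0.00473% passed and within X35 0% passed, with 0 of 3 members in each, while 2133 and 1073 probes had an unadjusted p under 0.05 in limma. Groups in X11 with every enriched juvenile above every unenriched one made up 5.64% of all probes and included 2 of the 3 members. The mean was higher in the enriched environment in all 3 families for 16.6% of probes and for 3 of 3 members. A probe of this array differed by a median of 0.14 in size between the environments with the families pooled, by 0.28 within X11, by 0.19 within X22 and by 0.16 within X35. Nothing is read from these counts.

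Ordering the 6 group means placed unenriched X11 lowest for each member, and enriched X11 highest for neuritin and cerebellin-1-like. Neuritin decreased through enriched X11 (0.42), enriched X22 (0.34), enriched X35 (0.20), unenriched X22 (0.03), unenriched X35 (-0.43) and unenriched X11 (-0.44), and the ranges of all neighbours in this order overlapped. For cerebellin-1-like the order was enriched X11 (0.34), enriched X35 (-0.04), enriched X22 (-0.16), unenriched X35 (-0.25), unenriched X22 (-0.63) and unenriched X11 (-0.96). Only the step between enriched X11 and enriched X35 was free of overlap. Schwannomin-interacting protein 1-like ran through enriched X22 (0.33), enriched X11 (0.31), enriched X35 (-0.03), unenriched X22 (-0.08), unenriched X35 (-0.41) and unenriched X11 (-0.56). Neighbours overlapped at every step. All 3 enriched means were above all 3 unenriched means for each member, in the contrast that chose the probes. No share of all probes is set beside this. The gap from the lowest enriched to the highest unenriched mean was 0.17 for neuritin, 0.09 for cerebellin-1-like and 0.05 for schwannomin-interacting protein 1-like. The pooled SDs of the groups on either side were 0.51, 0.65 and 0.33.

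The spread between tank mates was above the median probe for neuritin and cerebellin-1-like and just below it for schwannomin-interacting protein 1-like. The pooled SD within the 6 groups was 0.44 for neuritin, 0.48 for cerebellin-1-like and 0.32 for schwannomin-interacting protein 1-like, against a median of 0.34 over all probes. It varied between groups, being only 0.17 for neuritin in enriched X22 and 0.69 for cerebellin-1-like in unenriched X35.

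Whether the families differed, with both environments weighed equally, was a comparison the choice of probes had not used directly. The pooled contrast behind the choice had no family term, so that family differences added to its spread. A probe with a large family difference could thus be less likely to be listed, and the test is not wholly independent of the choice. No member passed this family test. Family means of neuritin were -0.01 ± 0.60 in X11, 0.19 ± 0.39 in X22 and -0.11 ± 0.59 in X35 (SD, n = 10 each), with an adjusted p of 0.421 in limma's F-test over all probes. For cerebellin-1-like the means were -0.31 in X11, -0.40 in X22 and -0.15 in X35 (adjusted p = 0.646, limma). For schwannomin-interacting protein 1-like they were -0.12 in X11, 0.12 in X22 and -0.22 in X35 (adjusted p = 0.168, limma). Among all probes 25% passed this test, against 0 of the 3 members, of which 0 had an unadjusted p under 0.05 in limma. With arrays weighted by quality in the same test, neuritin (adjusted p = 0.0468, limma) and schwannomin-interacting protein 1-like (adjusted p = 0.0488, limma) passed.

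The intervals of the family differences show what these numbers of juveniles could resolve. For schwannomin-interacting protein 1-like, X22 exceeded X35 by 0.34 (95% interval 0.04 to 0.64, adjusted p = 0.121, limma). This pair passed with array weights (adjusted p = 0.0291, limma) and without unenriched X22 replicate 3 (adjusted p = 0.0492, limma). Its X11 minus X22 difference was -0.25 (-0.55 to 0.06) and its X11 minus X35 difference 0.10 (-0.21 to 0.40). For neuritin the largest pair was X22 minus X35 at 0.30 (-0.09 to 0.69), and for cerebellin-1-like it was X22 minus X35 at -0.25 (-0.70 to 0.21). The neuritin pairs moved with slide as a fixed block, to 0.84 for X22 minus X35, 1.09 for X11 minus X35 and 0.25 for X11 minus X22. Without the block this last pair was -0.20. X35 shared a slide with other families only on slide 8, with 1 X11, 1 X22 and 2 X35 juveniles, all enriched. The X11 juvenile there (replicate 2) had the highest neuritin ratio of all juveniles, 1.16, so the blocked pairs rest on few arrays.

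Whether the response to gravel differed between families was tested by the interaction of family and environment. The pooled comparison that led to the probes does not enter this test, but the study listed all 3 probes for X11 as well, so it is not wholly independent of the choice. The adjusted p was 0.660 for neuritin, 0.284 for cerebellin-1-like and 0.499 for schwannomin-interacting protein 1-like in limma's F-test. In all, 0.0615% of probes passed and 0 of the 3 members did. Before adjustment 1 of 3 had a p under 0.05 in limma, cerebellin-1-like at 0.0326. Its difference between environments was larger in X11 than in X35 by 1.09 (95% interval 0.25 to 1.93, adjusted p = 0.255, limma) and than in X22 by 0.83 (-0.01 to 1.67). For neuritin the X11 difference exceeded that of X22 by 0.56 (-0.22 to 1.34) and that of X35 by 0.24 (-0.54 to 1.02). For schwannomin-interacting protein 1-like the excess of X11 was 0.47 (-0.12 to 1.05) over X22 and 0.50 (-0.09 to 1.09) over X35. All but the interval of cerebellin-1-like between X11 and X35 included 0. With slide as a fixed block, the neuritin value for X11 against X35 was -0.42. X11 had both environments only on slide 4, and X35 only on slide 7.

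Atrial myosin separated the unenriched juveniles and ran opposite to all 3 members. The 2 probes for atrial myosin light chains, contractile proteins of the upper heart chamber, had mean ratios between -4.52 and -2.30 in the 15 enriched juveniles (median -3.90). In 8 unenriched juveniles they lay between 0.19 and 1.14 (median 0.89), and in the other 7 between -4.37 and -2.87 (median -3.67). Those 8 were 4 of 5 unenriched X11, 2 of 5 unenriched X22 and 2 of 5 unenriched X35 juveniles. The heart marker set was matched by name and took in 1 further probe, C-type natriuretic peptide 1 precursor. Whether this probe marks heart in these heads was not tested. It went the other way, and differed by 0.29 between environments over all families. Its r was 0.34 with neuritin, 0.83 with cerebellin-1-like and 0.42 with schwannomin-interacting protein 1-like.

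All 3 members were lowest in the juveniles with high atrial myosin. Neuritin ratios lay between -0.21 and 1.16 in the enriched juveniles (median 0.32), between -1.11 and 0.06 in the 8 unenriched juveniles with high atrial myosin (median -0.61) and between -0.75 and 0.67 in the other 7 (median 0.09). Cerebellin-1-like medians were 0.08 in the enriched juveniles, -1.17 in those 8 and -0.15 in the other 7. Schwannomin-interacting protein 1-like medians were 0.19 in the enriched juveniles, -0.59 in those 8 and -0.13 in the other 7. For each member 0 of the 8 and 1 of the other 7 exceeded the enriched median. No share of all probes is set beside these counts. All 8 were unenriched and the members were listed for a difference between environments. Low values in the 8 therefore partly follow from the choice of probes, and nothing is read from the counts.

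With atrial myosin as a covariate in the model, a choice made after seeing the data, the difference between environments over all families was 0.29 (SE 0.18) for neuritin, 0.25 (SE 0.20) for cerebellin-1-like and 0.33 (SE 0.15) for schwannomin-interacting protein 1-like. With the 8 juveniles left aside it was 0.28 (SE 0.18), 0.22 (SE 0.18) and 0.31 (SE 0.14) in the same order. Each member thus kept a higher enriched mean, by a smaller difference than as measured. The 2 atrial myosin probes themselves differed by -2.71 and -2.33 between environments, and all 8 juveniles were unenriched. Both choices therefore take out part of the contrast itself, and nothing is read from the smaller size. In X11 the covariate left 0.19 (SE 0.38) for neuritin and 0.51 (SE 0.37) for schwannomin-interacting protein 1-like, while cerebellin-1-like stayed at 1.30 (SE 0.28). All 3 of these values rest on the 1 unenriched X11 juvenile with low atrial myosin (replicate 5), whose cerebellin-1-like spot was under the Cy5 limit. In X35 cerebellin-1-like turned to -0.11 with the covariate and to -0.15 with the juveniles left aside. The part of the amount of heart tissue in these differences was not tested.

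**Figure D2:**
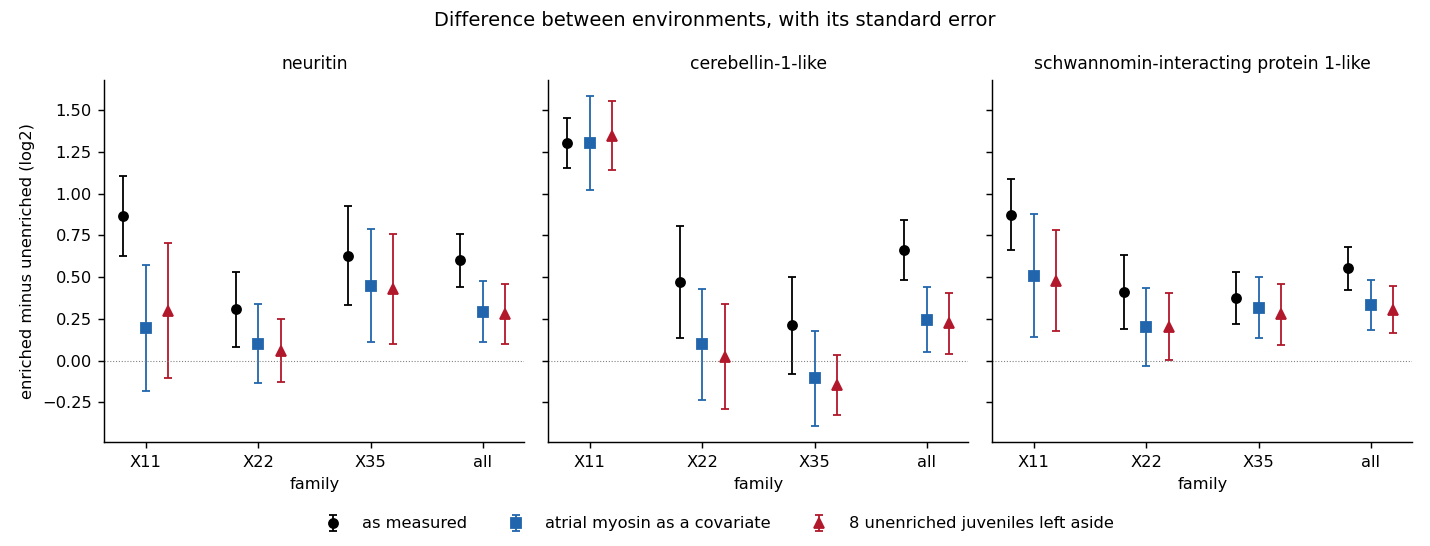
Enriched minus unenriched log2 ratio (vertical axis) of the 3 probes in each family and over all families, with standard errors as bars, as measured, with atrial myosin as a covariate, and with 8 unenriched juveniles left aside. Over all families the differences were 0.60, 0.66 and 0.55 as measured and 0.29, 0.25 and 0.33 with the covariate.

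Slides were compared next, because only 4 of the 8 held both environments of a single family. On slide 1 (X22, 2 enriched and 2 unenriched juveniles) the difference between environments was 0.27 for neuritin, 0.84 for cerebellin-1-like and 0.05 for schwannomin-interacting protein 1-like. On slide 2 (X22, 1 enriched and 3 unenriched) it was 0.44, 0.59 and 0.65 in the same order. On slide 4 (X11, 1 enriched and 3 unenriched) it was 0.53, 1.20 and 0.40, and on slide 7 (X35, 3 enriched and 1 unenriched) it was 1.17, -0.37 and 0.58. Enriched means were thus higher on every one of these slides, except for cerebellin-1-like on slide 7. With slide as a block in the model over all families, the differences were 0.59 for neuritin, 0.63 for cerebellin-1-like and 0.53 for schwannomin-interacting protein 1-like.

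Cerebellin and schwannomin-interacting protein were each named on 2 further retained probes, and no other retained probe was named neuritin. All 4 were named in the study's X11 list, so their X11 values are again a description. Both further cerebellin probes had higher enriched means in every family. C243R149 differed by 0.53 (SE 0.15) over all families and by 0.97, 0.41 and 0.20 in X11, X22 and X35. In X11 its Cy5 signal was above the background limit in 5 of 5 enriched and 2 of 5 unenriched juveniles. C017R044 differed by 0.51 (SE 0.19) over all families and by 0.88, 0.26 and 0.40 in X11, X22 and X35. The cerebellin names do not say which cerebellin gene a probe reads.

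The 2 further schwannomin-interacting protein 1 probes went opposite ways in X11. C202R040 differed by 0.31 (SE 0.20) over all families and by 0.67 in X11, 0.06 in X22 and 0.20 in X35. In X11 its Cy5 signal was above the background limit in 5 of 5 enriched and 1 of 5 unenriched juveniles. The size of its X11 difference thus rests mostly on unenriched spots not well above background. C066R060, by contrast, was less abundant in enriched X11 juveniles, with a mean of 0.15 ± 0.15, than in unenriched ones, with a mean of 0.89 ± 0.16 (SD, n = 5 each), a difference of -0.74 (SE 0.13). It differed by 0.14 in X22 and by -0.03 in X35. C066R060 was bright on all 30 arrays, and in the 8 juveniles with high atrial myosin its median was 0.83, against 0.28 in enriched juveniles and 0.03 in the other 7. For C066R060 a shared name therefore did not go with a shared pattern.

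Of all probes 25% passed the family test, and of the named probes 1023 of 3075. Of the 4 further probes 2 passed it, and nothing is read from this count. They were C017R044 (cerebellin, adjusted p = 0.00240, limma) and C202R040 (schwannomin-interacting protein 1, adjusted p = 0.00856, limma). Family X35 was the lowest for both. C017R044 averaged 0.19 in X11, 0.17 in X22 and -0.57 in X35. C202R040 averaged 0.08, 0.34 and -0.47 in the same families. In X35 it lay between -1.34 and -0.26 in replicates 3 to 5 of both environments, on which its low mean rests. In replicates 1 and 2 it lay between -0.02 and 0.16. Its Cy5 signal was above the limit in 2 of 5 enriched and 2 of 5 unenriched X35 juveniles. Over all families the counts were 11 of 15 and 7 of 15. The r of C202R040 with an array's median Cy5 brightness was 0.46 within groups. The adjusted p was 0.125 for C243R149 and 0.147 for C066R060 in limma.

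**Figure D3:**
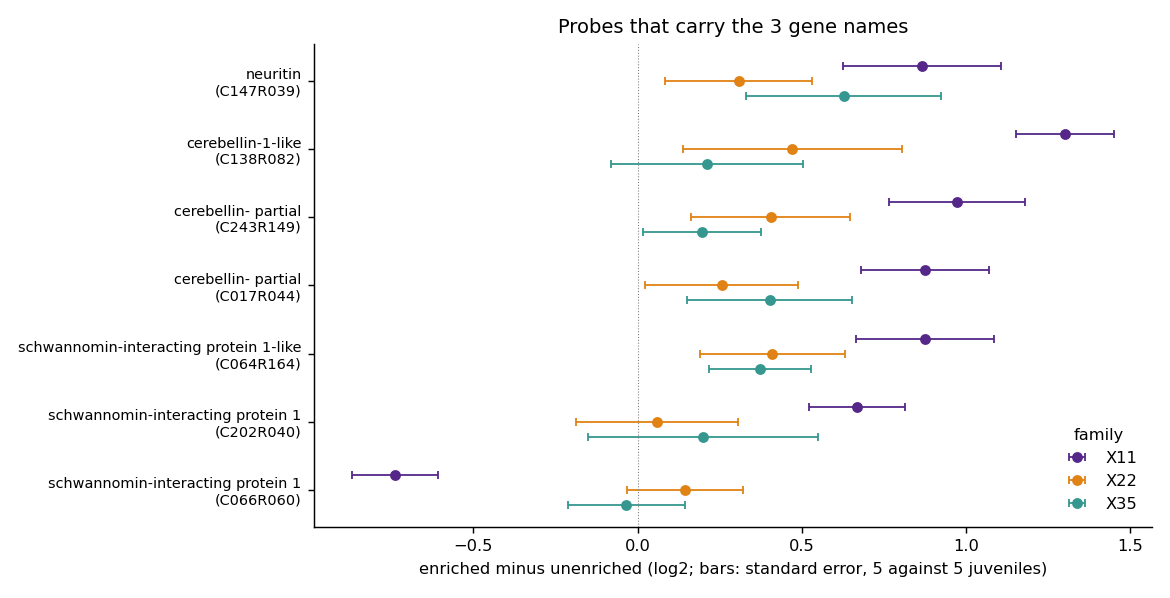
Enriched minus unenriched log2 ratio (horizontal axis) of the 3 members and of the 4 other probes with the same gene names, by family, with standard errors as bars (5 against 5 juveniles). Of the 7 probes, 6 lie above 0 in X11 and C066R060 lies at -0.74.

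The members varied together between juveniles to a moderate degree. Over the 30 juveniles Pearson's r was 0.67 (Spearman's rho 0.75) between neuritin and schwannomin-interacting protein 1-like, 0.57 (rho 0.60) between cerebellin-1-like and schwannomin-interacting protein 1-like, and 0.55 (rho 0.49) between neuritin and cerebellin-1-like. After the 6 group means were removed, r was 0.37, 0.38 and 0.40 for the same pairs. The juveniles share tanks, slides and the common reference, and the members share the contrast that chose them. Among the 21135 other probes, ordered by their r with neuritin, schwannomin-interacting protein 1-like stood at place 292 and cerebellin-1-like at place 1155.

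Over the 30 juveniles, cerebellin-1-like resembled a same-name probe most. Its r with the cerebellin probe C243R149 was 0.84, the highest of any probe. Next came C-type natriuretic peptide 1 precursor (r = 0.83), a secreted peptide hormone, pleiotrophic factor-alpha-2 precursor (0.81), a heparin-binding growth factor, transmembrane 4 L6 family member 1-like (0.77) and cyclin-dependent kinase 4 inhibitor B (0.76), a brake on the cell cycle. Within groups C243R149 (r = 0.71) stood behind pleiotrophic factor-alpha-2 precursor (0.76), rhombotin-1, a transcriptional cofactor (0.74), and C-type natriuretic peptide 1 precursor (0.74), and protein fam19a2 reached 0.68 (28 juveniles).

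Neuritin was most like NF-kappa-B inhibitor-interacting Ras-like protein 2 (r = 0.85), neighbor of COX4 (0.84), uridine-cytidine kinase 1 (0.83), an enzyme of pyrimidine salvage, and 2 probes for cyclin-G2-like (0.82 each), a cyclin found in cells that stop dividing. Within groups neighbor of COX4 came first among named probes (0.86), and the MKI67 FHA domain-interacting nucleolar protein and protein fam50a both reached 0.76. No synaptic transcript was among these closest named probes. The probes for SNAP25, a synaptic protein, had an r with neuritin of 0.74 (C134R083), 0.73 (C013R057) and 0.58 (C091R069) over the 30 juveniles. Neuritin and the schwannomin-interacting protein 1 probe C066R060 ran opposite, with r = -0.70 over the 30 juveniles and -0.66 within groups.

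Schwannomin-interacting protein 1-like was most like max protein (r = 0.85), a partner of the Myc transcription factor, transmembrane protein 50a (0.85), calcium release-activated calcium channel protein 1 (0.84, 25 juveniles), the pore of a store-operated calcium channel, Sec13 homolog (0.83), a coat protein of secretory vesicles, and UPF0414 transmembrane protein c20orf30 homolog (0.83). Within groups, hypoxanthine-guanine phosphoribosyltransferase (0.71, 28 juveniles), an enzyme of purine salvage, and translationally-controlled tumor protein (0.70) were also among its 5 closest named probes.

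The probes most like schwannomin-interacting protein 1-like lay near it on the array. Its spot is in array column 64, and the 5 named probes above were in columns 47 to 50. Of the 100 probes most like it, 39 were within 20 columns over the 30 juveniles and 44 within groups, whereas 15.4% of all probes lay that near. For neuritin the count was 13 of 100 (16.1% of all probes lay that near), and for cerebellin-1-like it was 15 of 100 (16.1%). The median ratio of the spots within 10 columns and 10 rows of schwannomin-interacting protein 1-like had an SD of 0.13 over the arrays and an r of 0.51 with the probe. That local median differed by 0.06 between enriched and unenriched juveniles, against -0.03 around neuritin and 0.00 around cerebellin-1-like. With local medians removed, a choice made after seeing the data, the difference between environments was 0.49 for schwannomin-interacting protein 1-like, 0.63 for neuritin and 0.66 for cerebellin-1-like. The part of array position in which probes were alike was not tested further.

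**Figure D4:**
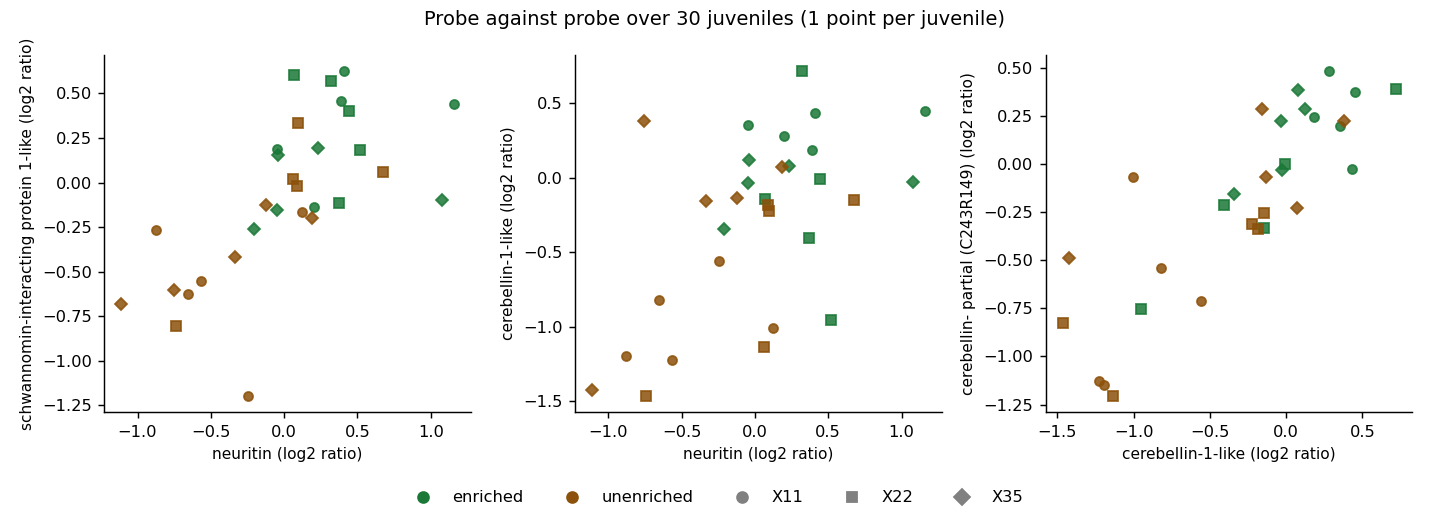
Log2 ratios of probe pairs in 30 juveniles, 1 point per juvenile, with colour for environment and shape for family. The panels show schwannomin-interacting protein 1-like against neuritin (r = 0.67), cerebellin-1-like against neuritin (r = 0.55) and the cerebellin probe C243R149 against cerebellin-1-like (r = 0.84).

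Other named transcripts of the same processes did not move as 1 body. Gene names came from the study's lists of differing probes, so that these sets hold mainly probes already called on these arrays, and their counts are set beside those of all named probes. Over all families 1333 named probes had a higher and 1742 a lower enriched mean, 40 and 75 of them past FDR, with a median difference of -0.13 (-0.42 in X11). Among all retained probes the median was -0.01, with 10346 higher and 10790 lower. The family test was passed by 1023 of the 3075 named probes, a larger share than the 25% of all probes.

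The neurite growth set held 7 probes besides neuritin. The enriched mean was higher for 2 and lower for 5 of them, none passed FDR in limma over all families, and the median difference was -0.38 over all families and -0.76 in X11, the opposite sign to neuritin. The 5 were receptors and ligands of axon guidance, namely ephrin receptors, plexin-D1 and semaphorin-7a. Family effects passed for 4 of 7, against 1023 of 3075 named probes. The largest was doublecortin (C071R142), a microtubule protein of migrating young neurons, whose family means were 0.99 (X11), 0.87 (X22) and -0.88 (X35, adjusted p = 0.00534, limma). Plexin-D1 (C157R028), a semaphorin receptor, averaged -0.23, -0.72 and 0.04 in the same families (adjusted p = 0.0179, limma).

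The synapse set held 11 probes besides cerebellin-1-like, of which 7 had a higher and 4 a lower enriched mean. None passed FDR in limma over all families, and the median difference was 0.53 (X11 0.85, X22 0.31, X35 0.40). Higher members were the 2 cerebellin probes, 3 glutamate receptor probes, complexin-1 and a synapsin-2 probe, proteins of the synaptic cleft, the postsynaptic membrane and the vesicle release site. The 4 lower members were neuroligin 3b, the postsynaptic partner of neurexin (-0.28), syntaxin-12 (-0.47), metabotropic glutamate receptor 2 (-0.15) and synapsin 2a (-0.15), so that probes for glutamate receptors and for synapsin 2 stood on both sides. Family effects passed for 5 of 11, against 1023 of 3075 named probes. They were led by the cerebellin probe C017R044 and by glutamate receptor U1-like (C007R036), which averaged 1.26 in X11, 0.55 in X22 and -2.12 in X35 (adjusted p = 0.00647, limma). Values of the set were most spread in X35. With cerebellin-1-like included, the mean level of its 12 probes ran from -1.76 to 0.04 in unenriched X35 juveniles. The SD was 0.76 there, against 0.11 in X11 and 0.20 in X22. In enriched juveniles it was 0.40 in X35, 0.15 in X11 and 0.30 in X22.

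The set for schwannomin and the axon initial segment held 16 probes besides schwannomin-interacting protein 1-like, split into 8 higher and 8 lower. Its median difference was -0.07 over all families and -0.05 in X11, and none passed FDR in limma over all families. The name matches took in ankyrin repeat proteins that are not parts of the axon initial segment. Ankyrin-3-like, the main scaffold of that segment, differed by 0.78, whereas ankyrin-1-like differed by -0.38 and spectrin beta non-erythrocytic 1-like, a membrane skeleton protein, by -0.48. The sodium channel subunits beta-3 and beta-1-like differed by 0.56 and -0.52. Family effects passed for 5 of 16, about the share of 1023 in 3075 named probes. The largest were those of an ankyrin repeat protein (13c-a-like, C033R012), whose family means were 0.89 (X11), 0.10 (X22) and 0.18 (X35, adjusted p = 0.000619, limma), and of C202R040.

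Cell type markers showed that the heads held neural, eye, muscle and blood transcripts. The 9 neuron probes, among them 3 for SNAP25, a protein of vesicle release, had a mean level of -0.16 to 0.49 in enriched juveniles and -0.60 to 0.27 in unenriched juveniles. Enriched means were higher for 6 and lower for 3 of the 9, none past FDR in limma, with a median difference of 0.24 (0.66 in X11). The higher ones were the SNAP25 and stathmin probes and the lower ones were the neurofilament probes. The mean level of the 9 had an r of 0.60 with neuritin, 0.51 with cerebellin-1-like and 0.53 with schwannomin-interacting protein 1-like over the 30 juveniles. Within groups these were 0.43, 0.43 and 0.33. The 9 were not alike in this. In the same order r was 0.58 to 0.74, 0.45 to 0.57 and 0.49 to 0.68 for the SNAP25 probes. For the stathmin probes it was 0.18 to 0.60, 0.33 to 0.58 and 0.31 to 0.51. For the neurofilament probes it was -0.62 to -0.31, -0.52 to -0.09 and -0.66 to -0.28. Taken as a mean level, the skeletal muscle set ran opposite to the members at similar strength. The mean level of the lens set did so too, but more weakly with cerebellin-1-like. The mean level of the skeletal muscle probes had an r of -0.60 with neuritin, -0.56 with cerebellin-1-like and -0.68 with schwannomin-interacting protein 1-like (-0.35, -0.40 and -0.38 within groups). These probes did not act alike. In the same order r was -0.68, -0.49 and -0.73 for parvalbumin-7-like, but 0.43, 0.30 and 0.63 for a phosphorylase b kinase probe. The set was matched by name, and whether parvalbumin-7-like marks skeletal muscle in these heads was not tested. The mean level of the lens probes had an r of -0.63, -0.22 and -0.57 with the same members (-0.57, -0.15 and -0.40 within groups). Single lens probes differed in this. In the same order r was -0.73, -0.40 and -0.81 for beta-crystallin B3, but 0.08, 0.20 and 0.27 for the gamma-crystallin M2-like probe C086R033. For the gamma-crystallin M2-like probes C070R090 and C123R081 it was -0.47, -0.09 and -0.31, and -0.45, -0.14 and -0.52. The myelin, photoreceptor and haemoglobin sets did not run opposite in this way. Over the 30 juveniles r was 0.27, 0.31 and 0.40 for the myelin probes. It was 0.23, 0.07 and 0.20 for the photoreceptor matches and 0.31, -0.09 and 0.05 for the haemoglobin probes. No r is given for the mean level of the heart probes, whose levels fell into separate clusters of juveniles. Of 3 probes matched by name as heart 1 was higher, C-type natriuretic peptide 1 precursor, and the 2 for atrial myosin were lower, both past FDR. Both myelin and lymphocyte protein probes were higher, 1 past FDR, with a mean level of -0.55 to 0.82 in enriched juveniles and -1.15 to 0.04 in unenriched juveniles. No retained probe was named as an astrocyte marker. Of 4 skeletal muscle probes 1 was higher and 3 lower, and their mean level was -0.63 to 0.22 in enriched juveniles and -0.60 to 0.70 in unenriched juveniles. Of 4 lens probes 1 was higher and 3 lower (1 past FDR), and of 3 haemoglobin probes 1 was higher and 2 were lower. Among 4 photoreceptor name matches, 2 were higher, arrestin-C-like and arrestin domain-containing protein 2, and 2 lower, LWS opsin and transducin-like 2. The matches were made on words of the names, and whether each of them marks photoreceptors was not tested. The part of the mix of tissues in a head in the values of the 3 members was not tested, beyond the atrial myosin values above.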

How the data were processed

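Cy5 and Cy3 intensities, the median brightness of each spot and of its local background, and the spot flags (a quality score of each spot) are the authors' deposited scanner output with no normalization. The authors' deposited table of log2 ratios had been normalized by loess within arrays and imputed (21117 probes). It was used as an alternative. From the intensities, log2 ratios of background-subtracted medians were computed by the same steps without imputation (loess span 0.4), and spots flagged 1 or 2 or under the Cy3 limit (mean + 2 SD of background) were removed. Spots flagged 3 were kept, as in the study, among them those of C066R060 in unenriched X22 replicates 4 and 5. Probes missing on over 7 of 30 arrays were left out, which kept 21136. The 3 members were measured on all 30 arrays. Values correlated with the authors' at 0.997 or more per array. The lowest correlation between 2 arrays was -0.37, and the dyes stated in the methods set the direction. Every juvenile was in Cy5 with no dye swap.

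Groups came from the sample labels. Tests used limma 3.58.1 in R 4.3.3 (lmFit and eBayes, two-sided, Benjamini-Hochberg over all probes, FDR 5%). The family test had environment as a term, and the interaction test had the 6 groups. The code was tested on simulated data. Juveniles of 1 tank are the replicates, so p-values measure the spread within tanks. Precision is set by the number of arrays.

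Members, gene sets and markers were chosen with earlier results of these data known. The probes named are the 3 members, all other probes with their gene names, the 5 named probes most like each member, and the 2 of each neural set with the largest family F. Further probes of these sets and SNAP25 are named as examples chosen after their values were seen. Atrial myosin and array position entered after the data had been seen. Alternatives covered background correction, scaling, loess span, filters on dim spots, the authors' values, array weights, slide, family, tank and replicate blocks, and each juvenile left out. Fold changes, p-values and q-values in the study's own tables were not used.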

Additional observations from a re-analysis of the deposited data

Results flagged for a closer look

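In groups of 5 juveniles, 3 values among the 7 probes with these gene names stood apart from their tank mates by more than Dixon's 95% limit of 0.71 for the gap over the range. In all, 42 groups were examined, of which chance flags about 1 in 20. Schwannomin-interacting protein 1 (C066R060) was 0.67 in unenriched X22 replicate 3, against -0.10 to 0.05 in the other 4 juveniles. Schwannomin-interacting protein 1 (C202R040) was 0.17 in enriched X11 replicate 3, against 0.46 to 0.51 in the others. The same probe was -0.32 in unenriched X22 replicate 1, against 0.39 to 0.51 in the others. No value of the 3 members was flagged.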

How the results depend on the processing

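Over all families each of the 3 members had a higher enriched mean under every alternative that gave it a value. The difference was 0.28 to 0.63 for neuritin, 0.22 to 0.66 for cerebellin-1-like and 0.31 to 0.55 for schwannomin-interacting protein 1-like, lowest with the 8 juveniles left aside, and 0.54 to 0.67, 0.60 to 0.73 and 0.49 to 0.60 with 1 juvenile left out. Cerebellin-1-like had no value with dim Cy5 spots removed. With slides as blocks its X35 difference was -0.37, and it was -0.08 to 0.37 with 1 juvenile left out. The slide block in X11 and X35 rests on 1 slide each, and there gave 0.40 for schwannomin-interacting protein 1-like in X11 and 1.17 for neuritin in X35.

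Counts of probes called moved more than the members did. The count for the environment over all families was 130. It was 22 with normexp background correction, 84 with no filter on dim Cy3 spots, 20 with slide as a fixed block, 64 with slide as a random block, 370 with family as a block, 0 on the means of the 6 tanks, 4 with atrial myosin as a covariate and 2 with the 8 juveniles aside, and 61 (without unenriched X22 replicate 3) to 295 (without enriched X35 replicate 4) with 1 juvenile left out. The family count was 5290, and 2901 with a filter on dim Cy5 spots, 8705 with array weights and 1146 with slide as a fixed block, and 4347 to 6285 with 1 juvenile left out. The interaction count was 13, and 2 with normexp, 20 with scaling between arrays, 7 on probes measured on all arrays, 63 with the Cy5 filter, 400 with array weights, 4 with a replicate block, 1 with atrial myosin as a covariate, 35 with the 8 aside and 48 with local medians removed, and 1 to 120 with 1 juvenile left out. The causes were not tested.

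Array weights alone brought members past the family test, with adjusted p-values of 0.0468 for neuritin and 0.0488 for schwannomin-interacting protein 1-like in limma. They also took the X11 minus X22 interaction of cerebellin-1-like past the threshold, at 1.20. With 1 juvenile left out the adjusted p-values in limma were 0.205 to 0.652, 0.391 to 0.856 and 0.0625 to 0.297 for family and 0.459 to 0.806, 0.120 to 0.401 and 0.315 to 0.706 for the interaction, in the order neuritin, cerebellin-1-like and schwannomin-interacting protein 1-like.

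Replicate numbers did not pair the juveniles. Over 75 pairs with the same number the correlation of deviations was -0.26 to 0.52 (median -0.01), and 8 of 30 juveniles correlated best with their own number. With a replicate block the differences over all families were 0.60, 0.66 and 0.55, the adjusted p-values in limma were 0.416, 0.659 and 0.166 for family and 0.650, 0.299 and 0.486 for the interaction, and the block changed no call of a member. With local medians removed the r of neuritin and schwannomin-interacting protein 1-like was 0.78.

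Depth limits cerebellin-1-like most, whose Cy5 spots were often not above background. With 1 tank per group, tank cannot be told apart from family and environment.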
